A study of Mus musculus with 6 samples.

Results

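The genes described here are 10 members of the bone morphogenetic protein (BMP) pathway and the Id family, measured by RNA-seq in the RPE-choroid of mice. They were chosen by name: the ligands Bmp2, Bmp4 and Bmp7, the receptors Bmpr1a and Bmpr2, the signal transducer Smad1, the inhibitory Smad6 and the target genes Id1, Id2 and Id3. All 10 were found by Ensembl identifier among the 15663 genes listed for each library, and all 10 passed the filter on low counts (more than 50 counts in at least 2 libraries). This tissue holds the retinal pigment epithelium (RPE), which nourishes the photoreceptors, and the vascular choroid beneath it. The study compared 3 untreated control mice with 3 mice with subretinal fibrosis (SRF), the scar that can follow leaking vessels under the retina. All 6 mice carry the strain label C57BL/6, and the study's methods give C57BL/6J males of 8 to 10 weeks. SRF was induced by laser in 2 stages, with 4 burns in each eye, each burned again 10 days later, and RPE-choroid was collected 20 days after that. The control mice received no laser. Each library came from a separate mouse, so the spread within a group is that between animals.

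BMPs are secreted dimers of the TGF-β family that bring together type I receptors such as BMPR1A and the type II receptor BMPR2. The type I receptor phosphorylates SMAD1, SMAD5 or SMAD9, which join SMAD4 in the nucleus and switch on targets such as the Id genes and the feedback inhibitor Smad6. ID proteins are helix-loop-helix proteins without a DNA-binding region that hold their partners away from DNA, and the RPE itself is known as a source of BMPs. mRNA levels do not measure receptor activation or SMAD phosphorylation, which were not analysed here.

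Total counts lay between 13667310 and 24356023 per library, at which 3 counts correspond to 0.123 to 0.22 CPM, counts scaled to a common library size. The 12 RPE markers summed to 47520 to 54960 CPM in control mice and to 33250 to 42000 CPM in SRF mice. By log2 fold change 8 of them were lower and 4 higher in SRF. Of the 12, 5 were lower in every SRF mouse than in any control mouse, against 6.43% of all tested genes. The 13 macrophage and microglia markers summed to 1374 to 1806 CPM in control mice and to 3214 to 4645 CPM in SRF mice. By log2 fold change 12 of these were higher and 1 lower in SRF. Every SRF mouse was above every control mouse for 8 of them, against 6.71% of all tested genes. The 12 endothelial markers overlapped, at 2180 to 2609 CPM against 2042 to 2724 CPM. Photoreceptor RNA set 1 library of each group apart: the 20 rod and cone markers summed to 13930 CPM in control mouse 1 and 13570 CPM in SRF mouse 3, against 816.9 to 1909 CPM in the other 4 libraries. For several genes, results are also given without these 2 libraries. In bulk tissue fewer cells of a type and less RNA per cell cannot be told apart, and the part of cell makeup in the values below was not tested.

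**Figure D1:**
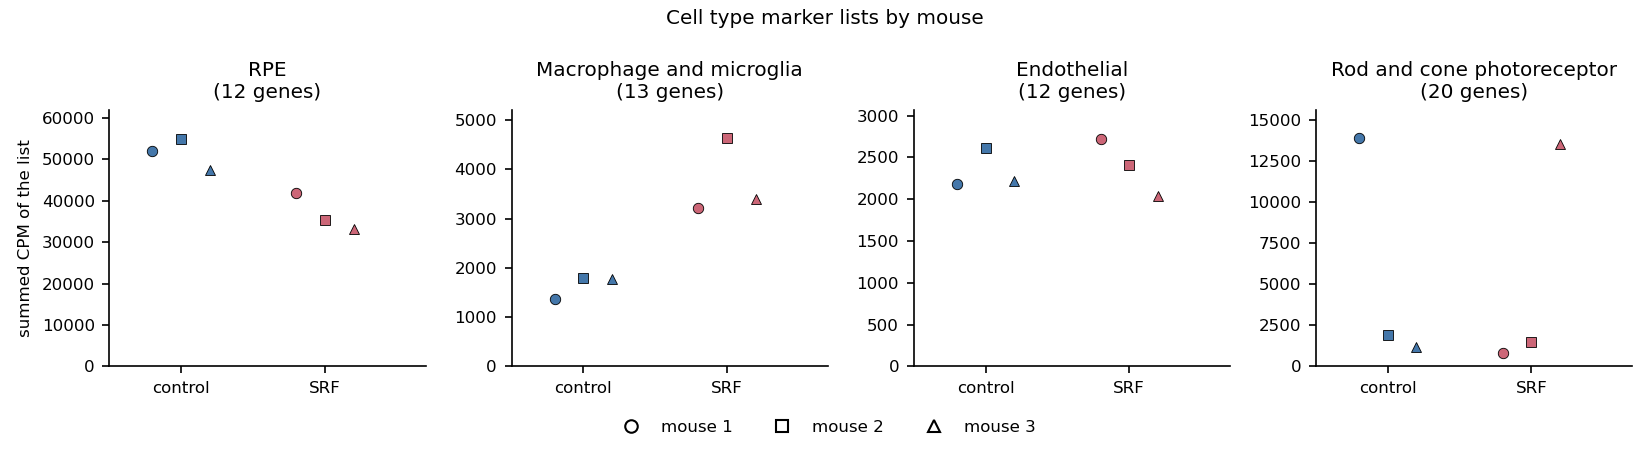
Summed TMM-normalized CPM (vertical axis, linear from 0) of the RPE, macrophage and microglia, endothelial, and rod and cone marker lists in each of 3 control (blue) and 3 SRF (red) mice, with 1 point per library; equal symbols in both groups are different animals. RPE sums are lower and macrophage sums higher in all 3 SRF mice, while photoreceptor sums reach 13930 and 13570 in 1 mouse of each group.

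Among the 10 genes, Smad1 was higher in every SRF mouse than in any control mouse, and Bmp4, Bmp7 and Bmpr2 were lower in every SRF mouse. Smad1 was at 2.04 times its control level, while Bmp4 differed from its control level by -30.5% and Bmp7 by -31.8%. The other 6 genes, Bmp2, Bmpr1a, Smad6, Id1, Id2 and Id3, overlapped between the groups. Non-overlap of this kind was found in 6.71% of the 13454 genes tested in the direction of higher in SRF and in 6.43% in the direction of lower, against 1 and 3 of the 10 genes. Calls needed an adjusted p under 0.05 together with a fold change of 0.5 or more on the log2 scale, either way. By edgeR's quasi-likelihood test, with p adjusted after Benjamini and Hochberg, none of the 10 genes was called, and 0% of all tested genes were, although 943 genes, 3 of these 10 among them, had an unadjusted p under 0.05. DESeq2 called 1.14% of all tested genes (153 genes), and 1 of the 10, Smad1. At an unadjusted p under 0.05 in edgeR, 4.16% of tested genes were higher and 2.85% lower in SRF, against Smad1 on the higher side and Bmp4 and Bmp7 on the lower side here.

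**Figure D2:**
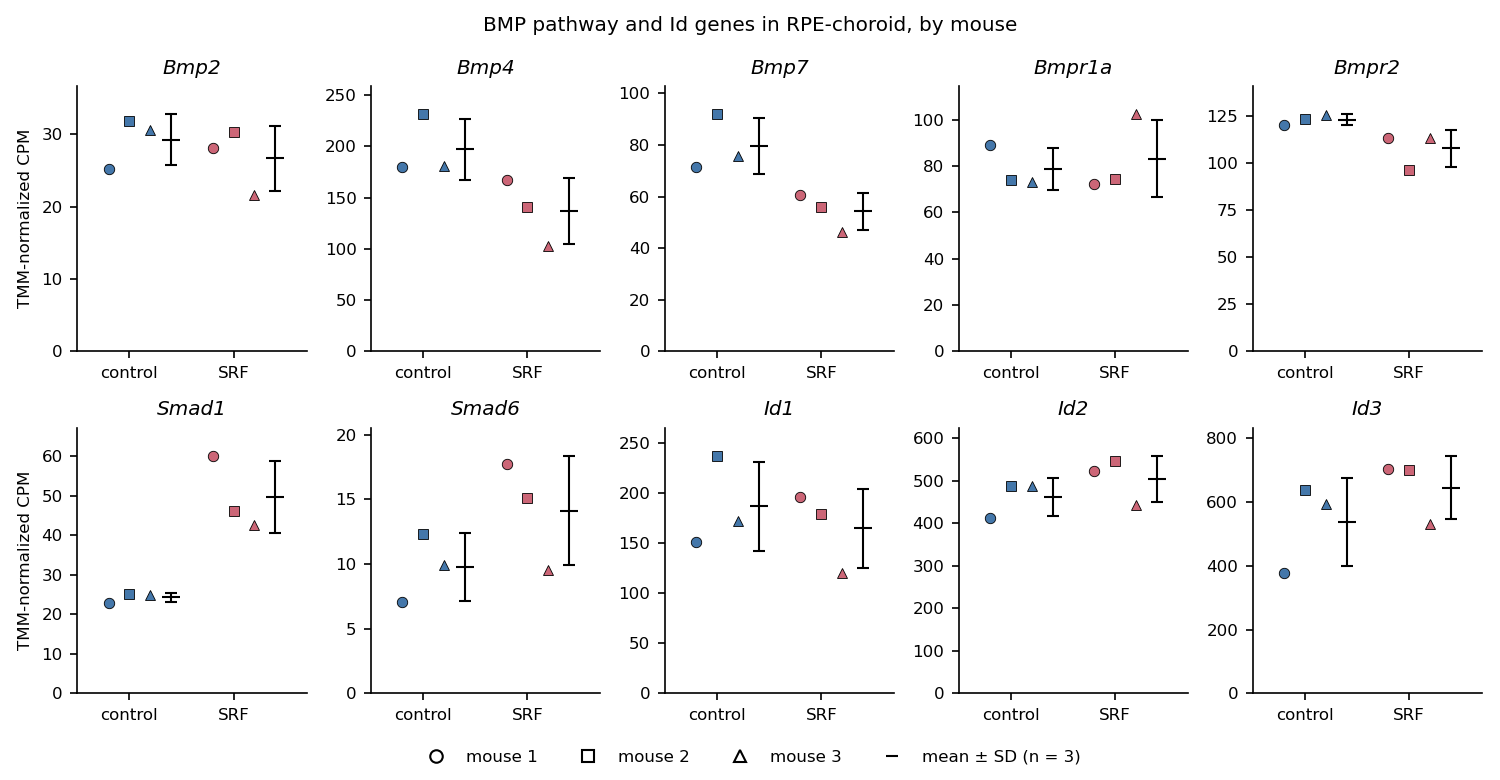
TMM-normalized CPM (linear axes from 0, a separate scale for each gene) of the 10 genes in 3 control (blue) and 3 SRF (red) mice, with 1 point per mouse and the mean ± SD beside them. Only the points of Smad1, Bmp4, Bmp7 and Bmpr2 separate by group, with Smad1 at 22.9 to 25.1 CPM in control mice and 42.7 to 60.0 CPM in SRF mice.

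Levels were compared between genes per transcript length, as the deposited FPKM values. In control mice Id3 stood highest, at 412.4 ± 105.8 FPKM (SD, n = 3), followed by Id2 at 356 ± 32.3 FPKM and Id1 at 194.7 ± 45.4 FPKM. Bmp4, at 100.0 ± 14 FPKM, was the most abundant of the 3 ligands, above Bmp7 at 21.3 ± 2.80 FPKM and Bmp2 at 8.06 ± 0.951 FPKM. By their mean over all 6 libraries Id3, Id2, Id1 and Bmp4 had levels above those of 99.1%, 98.8%, 96.7% and 92.0% of tested genes, respectively. The receptors Bmpr1a and Bmpr2 were at 14.2 ± 2.92 and 9.38 ± 0.217 FPKM. Smad1, at 7.63 ± 0.393 FPKM, and Smad6, at 3.22 ± 0.852 FPKM, came last. Neighbours in this order overlapped between mice only for Id3 with Id2 and for Bmp2 with Smad1. In SRF mice Smad1 stood at 16.2 ± 2.97 FPKM, beside Bmp7 at 15.0 ± 2.06 FPKM and Bmpr1a at 14.7 ± 3.11 FPKM, and these 3 overlapped.

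Bmp4 encodes a ligand with roles in eye development and is one of the BMPs made by the adult RPE. The gene (ENSMUSG00000021835) lies on chromosome 14 at 46383520 to 46390669 on the minus strand of GRCm38 and has 4 annotated transcripts, the longest with 4 exons. The sequence just upstream of its start is shown because Bmp4 is the most abundant ligand here and was lower in every SRF mouse. It was read from the RefSeq promoter table (GRCm38.p6, chr14:46390670-46390919, minus strand), with capitals on the single match to GTCT, a short sequence known as a SMAD-binding element, in either orientation.
Bmp4: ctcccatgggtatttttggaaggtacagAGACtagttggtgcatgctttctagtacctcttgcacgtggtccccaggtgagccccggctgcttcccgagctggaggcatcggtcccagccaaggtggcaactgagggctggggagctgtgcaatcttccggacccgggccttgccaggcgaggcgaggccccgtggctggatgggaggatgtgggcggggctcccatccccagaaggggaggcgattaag
Of all 300-base promoter windows in that table, 88% hold GTCT on one strand or the other, so the match is not particular to this gene.

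Bmp4 was at 179.6, 231.1 and 180.6 CPM in control mice 1 to 3 and at 167.3, 140.8 and 102.7 CPM in SRF mice 1 to 3. The highest SRF mouse lay just under the lowest control mouse, and the lowest value belonged to the photoreceptor-rich SRF mouse 3. The means were 197.1 ± 29.5 and 136.9 ± 32.5 CPM. The log2 fold change was -0.53 (SE 0.20, 95% interval -1.01 to -0.05), with an unadjusted p of 0.0358 and an adjusted p of 0.649 by edgeR's quasi-likelihood test, and an adjusted p of 0.336 by DESeq2. An exact permutation test, two-sided, gave p = 0.1, the smallest that 3 mice against 3 allow. Without both photoreceptor-rich libraries the log2 fold change was -0.42 (adjusted p = 0.237 by edgeR's quasi-likelihood test). The mean log2 CPM of the RPE markers was itself lower in every SRF mouse. Relative to that mean, Bmp4 was at -2.45 ± 0.16 in control and -2.74 ± 0.26 in SRF mice and overlapped (exact permutation p = 0.2).

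Bmp7, a ligand of kidney and eye development, lies on chromosome 2 at 172868012 to 172940321 (minus strand). It was at 71.3, 91.8 and 75.6 CPM in control mice and at 60.4, 56.1 and 46.3 CPM in SRF mice. All 3 SRF values lay under the control values, in the same order of mice as for Bmp4. The log2 fold change was -0.55 (SE 0.15, 95% interval -0.91 to -0.19), with an adjusted p of 0.422 by edgeR's quasi-likelihood test (unadjusted p = 0.00867) and 0.106 by DESeq2. Set against the mean log2 CPM of the RPE markers in the same library, Bmp7 still did not overlap. It was at -3.75 ± 0.14 in control and -4.05 ± 0.11 in SRF mice, a difference of -0.30 (exact permutation p = 0.1). That mean weights all markers alike. The summed CPM of the list was 52010, 54960 and 47520 in control mice and 42000, 35350 and 33250 in SRF mice. Whether Bmp7 was lower beyond that sum was not tested.

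Bmp2, a close relative of Bmp4, lies on chromosome 2 at 133552159 to 133562885 (plus strand). It was at 25.2, 31.9 and 30.6 CPM in control mice and at 28.1, 30.3 and 21.6 CPM in SRF mice, and the groups overlapped. In both groups the photoreceptor-rich mouse had the lowest value. Its log2 fold change was -0.13, and the 95% interval, -0.53 to 0.27, reached the value found for Bmp4. The 3 ligands together made up 118.4, 149.3 and 120.3 FPKM in control mice and 112.9, 98.6 and 71.4 FPKM in SRF mice. The sum was lower in every SRF mouse, and the share of it held by Bmp4 overlapped, at 77.3% ± 1.02 in control and 75.7% ± 2.27 in SRF mice. These sums, and the ratios given further on, were chosen after the fold changes had been seen.

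Bmpr1a, a type I receptor gene on chromosome 14 at 34410734 to 34503341 (minus strand), was at 89.0, 73.7 and 72.9 CPM in control mice and at 72.4, 74.6 and 102.2 CPM in SRF mice. Its highest value in each group came from the photoreceptor-rich library, in which Bmp2, Bmp4, Bmp7, Smad1, Smad6 and the 3 Id genes each had their lowest. On the log2 scale the fold change was 0.08 (95% interval -0.32 to 0.48), and -0.09 without SRF mouse 3.

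Bmpr2, the type II receptor gene on chromosome 1 at 59763400 to 59879014 (plus strand), was at 120.6, 123.5 and 126.0 CPM in control mice. SRF mice were at 113.8, 96.7 and 113.8 CPM. The groups did not overlap, with a gap between them that was small beside the distance of SRF mouse 2 from the other SRF mice. The fold change was -0.19 on the log2 scale (SE 0.11, 95% interval -0.45 to 0.07), and the adjusted p was 0.850 by edgeR's quasi-likelihood test and 0.935 by DESeq2. On Bmp4, Bmpr1a and Bmpr2 the annotation also places overlapping genes, of which those on the opposite strand share up to 290 exon bases with Bmpr1a and 89 with Bmp4. None of them is listed in the count tables, and whether the counting used strand is not given in the sources used here.

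Smad1 encodes one of the 3 SMADs that BMP receptors phosphorylate. The gene (ENSMUSG00000031681) lies on chromosome 8 at 79338395 to 79399518 on the minus strand of GRCm38, with 5 annotated transcripts and 6 exons in the longest. Its upstream sequence is shown since it is the member with the largest fold change of the 10 (RefSeq promoter table, GRCm38.p6, chr8:79399519-79399678, minus strand). The stretch holds neither GTCT nor GGCGCC, a GC-rich sequence that BMP-activated SMADs bind, on either strand, and so has no capitals.
Smad1: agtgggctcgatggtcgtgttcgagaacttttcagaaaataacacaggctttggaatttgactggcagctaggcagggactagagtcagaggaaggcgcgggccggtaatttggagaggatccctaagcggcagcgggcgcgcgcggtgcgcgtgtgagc
GGCGCC occurs in 11.9% of all promoter windows of 300 bases. Of the 7 members with a window in the table, it was found once each in Bmpr1a, Bmpr2 and Id2, and GTCT was found in 5 (Bmp4, Bmpr1a, Smad6, Id2 and Id3). A match is a string of letters, not a bound site.

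Smad1 was at 22.9, 25.1 and 24.9 CPM in control mice (308, 462 and 597 counts). In SRF mice it was at 60.0, 46.3 and 42.7 CPM (1109, 831 and 762 counts). The control mice lay close together, and the lowest SRF mouse, again the photoreceptor-rich one, was well above all of them. The means were 24.3 ± 1.19 and 49.6 ± 9.12 CPM, a log2 fold change of 1.03 (SE 0.16, 95% interval 0.66 to 1.40). By unadjusted p (0.000296) Smad1 stood at place 20 of 13454 tested genes, and its adjusted p by edgeR's quasi-likelihood test was 0.198. DESeq2 gave a log2 fold change of 1.02 with an adjusted p of 6.8e-05, so Smad1 rose in SRF mice by that test and was not called by edgeR. The study's own supplementary list of changed genes, drawn from these samples with DESeq2, also holds Smad1 and Tob1, so their DESeq2 calls here are not independent evidence. With both photoreceptor-rich libraries left out, edgeR's adjusted p was 0.0244 (log2 fold change 1.09). The adjusted p ranged from 6.8e-05 to 1 over the 21 alternatives tried, and the unadjusted p was under 0.05 in all 21.

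The paralogs of Smad1 gave other values. Smad5 was at 52.9, 50.9 and 52.4 CPM in control mice and 49, 55.6 and 48.7 CPM in SRF mice. These groups overlapped, with a log2 fold change of -0.03 (95% interval -0.29 to 0.23). In control mice Smad1 and Smad5 were about equal per length, with 0.91, 1.04 and 1.0 Smad1 FPKM per Smad5 FPKM. In SRF mice this ratio was 2.59, 1.76 and 1.85. Smad1 thus held 45.9% ± 0.919 of the summed Smad1, Smad5 and Smad9 FPKM in control and 63.3% ± 4.35 in SRF mice, without overlap (exact permutation p = 0.1). Smad9 supplied 7.35% ± 1.37 and 5.37% ± 1.01 of that sum, with overlap.

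Like Smad1, the macrophage and microglia list was higher in every SRF mouse than in any control mouse. In SRF mice 1 to 3 the list summed to 3214, 4645 and 3408 CPM. Smad1 was highest in SRF mouse 1, where that sum was the lowest of the SRF group. Relative to the mean log2 CPM of that list, Smad1 was at -1.04 ± 0.12 in control and -0.73 ± 0.39 in SRF mice, and the groups overlapped (exact permutation p = 0.2). Which cells carried the Smad1 mRNA was not tested.

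**Figure D3:**
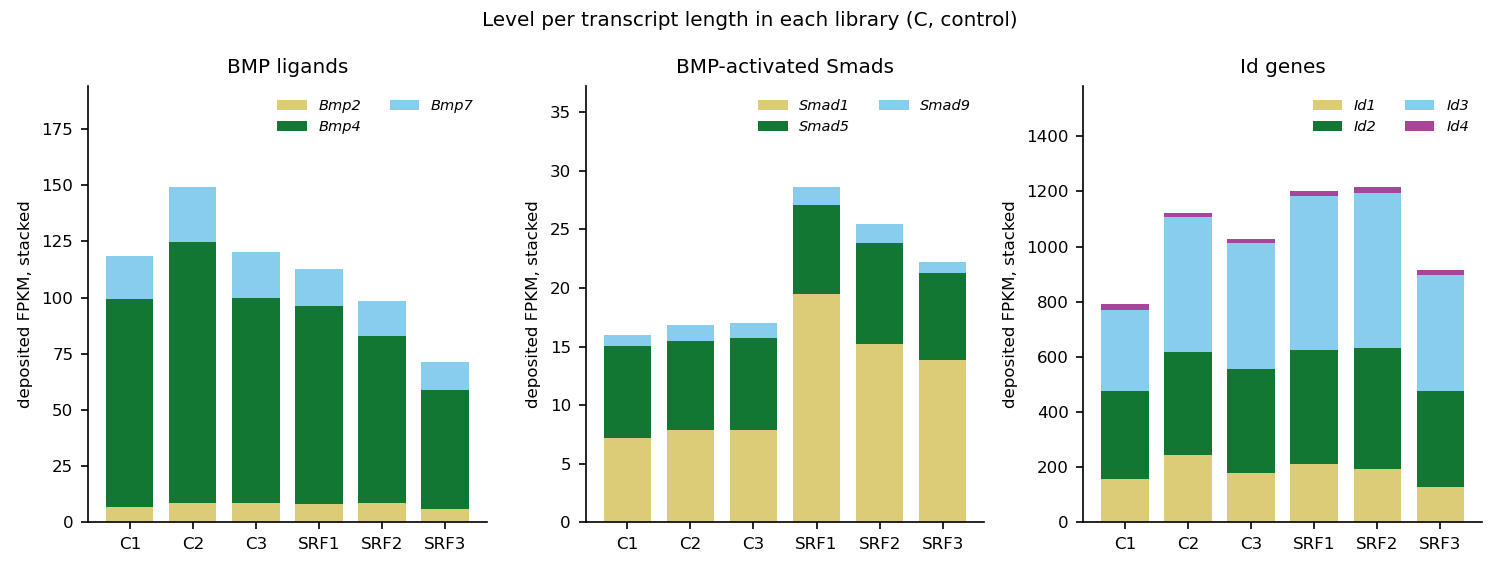
Deposited FPKM (vertical axes, linear from 0), stacked by gene, of the ligands Bmp2, Bmp4 and Bmp7, the SMADs Smad1, Smad5 and Smad9, and the Id genes in control mice (C1 to C3) and SRF mice (SRF1 to SRF3), with 1 bar per library. The ligand bars are lower in every SRF mouse, the Smad1 segment grows from 45.9% to 63.3% of its bar on average, and the Id bars overlap.

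Smad6 encodes an inhibitory SMAD that is induced by BMP signalling and abundant in endothelium. The gene lies on chromosome 9 at 63953076 to 64022059 (minus strand). It was at 7.07, 12.3 and 9.93 CPM in control mice and at 17.7, 15.1 and 9.52 CPM in SRF mice, from 95 to 328 counts per library. SRF mice 1 and 2 exceeded all control mice, whereas SRF mouse 3 lay within the control range. For Smad6 the log2 fold change was 0.53 (SE 0.30, 95% interval -0.19 to 1.24), with an adjusted p of 0.849 by edgeR's quasi-likelihood test. Without SRF mouse 3 the groups did not overlap, which held in that setting for 17.9% of tested genes on the higher and 17% on the lower side. Leaving out 1 mouse at a time moved the log2 fold change between 0.33 and 0.75, and leaving out both photoreceptor-rich libraries gave 0.56. Smad1 FPKM per Smad6 FPKM was 2.47 ± 0.566 in control and 3.48 ± 0.710 in SRF mice, with overlap.

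The Id genes, the classic transcriptional targets of the pathway, overlapped between the groups in all 3 cases. Id1, a short gene on chromosome 2 at 152736251 to 152737410 (plus strand), was at 151.6, 236.6 and 171.8 CPM in control mice and at 195.7, 179.1 and 120.6 CPM in SRF mice. Control mouse 2 was the highest of the 6 and SRF mouse 3 the lowest. For Id1 the log2 fold change was -0.18 (SE 0.24, 95% interval -0.73 to 0.38).

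Id2, on chromosome 12 at 25093799 to 25097140 (minus strand), was at 411.8, 489.0 and 488.2 CPM in control mice. In SRF mice it was at 522.6, 545.8 and 443.2 CPM, and the log2 fold change was 0.12 (SE 0.13, 95% interval -0.19 to 0.44). Id3, on chromosome 4 at 136143497 to 136145755 (plus strand), was at 379.0, 638.4 and 595.3 CPM in control mice and at 703.7, 699.1 and 530.6 CPM in SRF mice, with a log2 fold change of 0.26 (SE 0.22, 95% interval -0.26 to 0.79). For both genes SRF mice 1 and 2 were above every control mouse, and the lowest mouse of each group was the photoreceptor-rich one. With those 2 libraries left out, Id2 and Id3 no longer overlapped, on the higher side in SRF like 25.5% of all tested genes, and Id1 still did. Leaving out control mouse 1 alone took Id3 to 0.07 and Id2 to 0.05. For Id1, Id2 and Id3 the adjusted p by edgeR's quasi-likelihood test was 0.999, 0.982 and 0.948, respectively.

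Id4, the remaining family member, was at 88.3, 57.5 and 57.1 CPM in control mice and 76.0, 87.5 and 73.8 CPM in SRF mice, also with overlap (log2 fold change 0.23, 95% interval -0.23 to 0.69). The photoreceptor-rich control mouse 1 lay above all SRF mice, and control mice 2 and 3 lay below all of them. Without both photoreceptor-rich libraries the log2 fold change of Id4 was 0.51 (adjusted p = 0.113 by edgeR's quasi-likelihood test). The 4 Id genes summed to 980.3 ± 170.1 FPKM in control and 1112 ± 169.9 FPKM in SRF mice (exact permutation p = 0.5). Within that sum the share of Id1 was 19.8% ± 2.22 in control and 15.9% ± 1.69 in SRF mice, with overlap, and that of Id3 was 41.6% ± 4.18 and 46.0% ± 0.326, without overlap. Id3 FPKM per Id1 FPKM was 1.84, 1.99 and 2.55 in control mice and 2.65, 2.87 and 3.23 in SRF mice. The groups did not overlap, with SRF mouse 1 just above control mouse 3, and the exact permutation p was 0.1. Both values of each ratio come from the same library, so scaling between libraries does not enter it.

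The likeness of members across the 6 libraries is given as Pearson correlations of log2 CPM, as a description without a test, since the points share group, depth and photoreceptor content. Bmp4 and Bmp7 varied together (r = 0.968), as did Id2 and Id3 (r = 0.949). Smad6 followed Id3 (r = 0.926) and Id2 (r = 0.920), whereas Id1 was most like Bmp2 (r = 0.891). Bmpr1a ran opposite to Bmp2 (r = -0.947).

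The wider pathway was described with lists of 79 genes by role, of which 70 were listed and 63 tested. None of the 63 was called by edgeR, and DESeq2 called 2 of them, Smad1 and Tob1, against 1.14% of all tested genes. At an unadjusted p under 0.05, 5 of the 63 were higher and 4 lower in SRF, against 4.16% and 2.85% of all tested genes. Non-overlap was found for 7 on the higher and 5 on the lower side, against 6.71% and 6.43% of all tested genes. The median log2 fold change of the 63 genes was 0.09, against 0.00 over all tested genes.

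Of 8 ligands tested, Bmp4 and Bmp7 lay below the control mice and Gdf10, also known as Bmp3b, lay above, at 64.2, 50.1 and 72.8 CPM in control mice and 76.9, 113.6 and 90.9 CPM in SRF mice (log2 fold change 0.59, SE 0.20). Of 11 receptors and co-receptors, Bmpr2 was on the lower side, and the co-receptor Rgma was higher in all SRF mice at a low level, 3.63 to 4.24 CPM against 4.71 to 7.13 CPM, as was Neo1, a receptor for RGM proteins, with a log2 fold change of 0.30. Among the Smads (4 tested) only Smad1 separated the groups.

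Of 10 inhibitory Smads and intracellular brakes, 1 separated the groups. Tob1, which encodes an antiproliferative protein that dampens SMAD signalling, was at 120.6, 123.2 and 111.6 CPM in control mice and at 64.2, 79.7 and 85.1 CPM in SRF mice. All SRF mice lay clearly below the control mice, and the photoreceptor-rich SRF mouse was the closest to them. Tob1 fell by DESeq2 (log2 fold change -0.64, adjusted p = 0.00569) and was not called by edgeR's quasi-likelihood test (-0.63, SE 0.13, adjusted p = 0.298). Without both photoreceptor-rich libraries edgeR gave -0.71 (adjusted p = 0.0629).

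Of 15 secreted antagonists and modulators, Nog and Bmp1 separated the groups in opposite directions. Nog encodes noggin, which binds BMP2, BMP4 and BMP7 and keeps them from their receptors. It was at 29.6, 41.7 and 23.5 CPM in control mice and at 21.5, 15.5 and 13.6 CPM in SRF mice. The log2 fold change was -0.90 (SE 0.26, 95% interval -1.53 to -0.28), with an adjusted p of 0.447 by edgeR's quasi-likelihood test and 0.1 by DESeq2. Both the ligands and this antagonist were lower, and summed Bmp4 and Bmp7 FPKM per Nog FPKM overlapped, at 6.85 ± 1.20 in control and 8.62 ± 0.841 in SRF mice (exact permutation p = 0.3). Bmp1, a protease that frees BMPs by cleaving chordin and also processes procollagen, was at 28.3, 32.3 and 24.5 CPM in control mice and at 44.4, 51.3 and 33.2 CPM in SRF mice (log2 fold change 0.60, SE 0.19).

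Of 12 Id genes and other targets, the transcription factor gene Atoh8 was at 20.6, 18.6 and 17.7 CPM in control mice and at 31.0, 32.1 and 22.2 CPM in SRF mice. In CPM no SRF mouse overlapped with the control mice. In deposited FPKM, SRF mouse 3, at 10.11, lay within the control range of 8.81 to 10.42. The log2 fold change was 0.58 (SE 0.17), with an adjusted p of 0.465 by edgeR's quasi-likelihood test, and 0.38 with a GC offset. Without both photoreceptor-rich libraries Atoh8 was called (0.79, adjusted p = 0.0497 by the same test). Hey1, a Notch and BMP target, also separated the groups, with a log2 fold change of 0.29. The bHLH partners of ID proteins, Tcf3, Tcf4 and Tcf12, all overlapped.

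**Figure D4:**
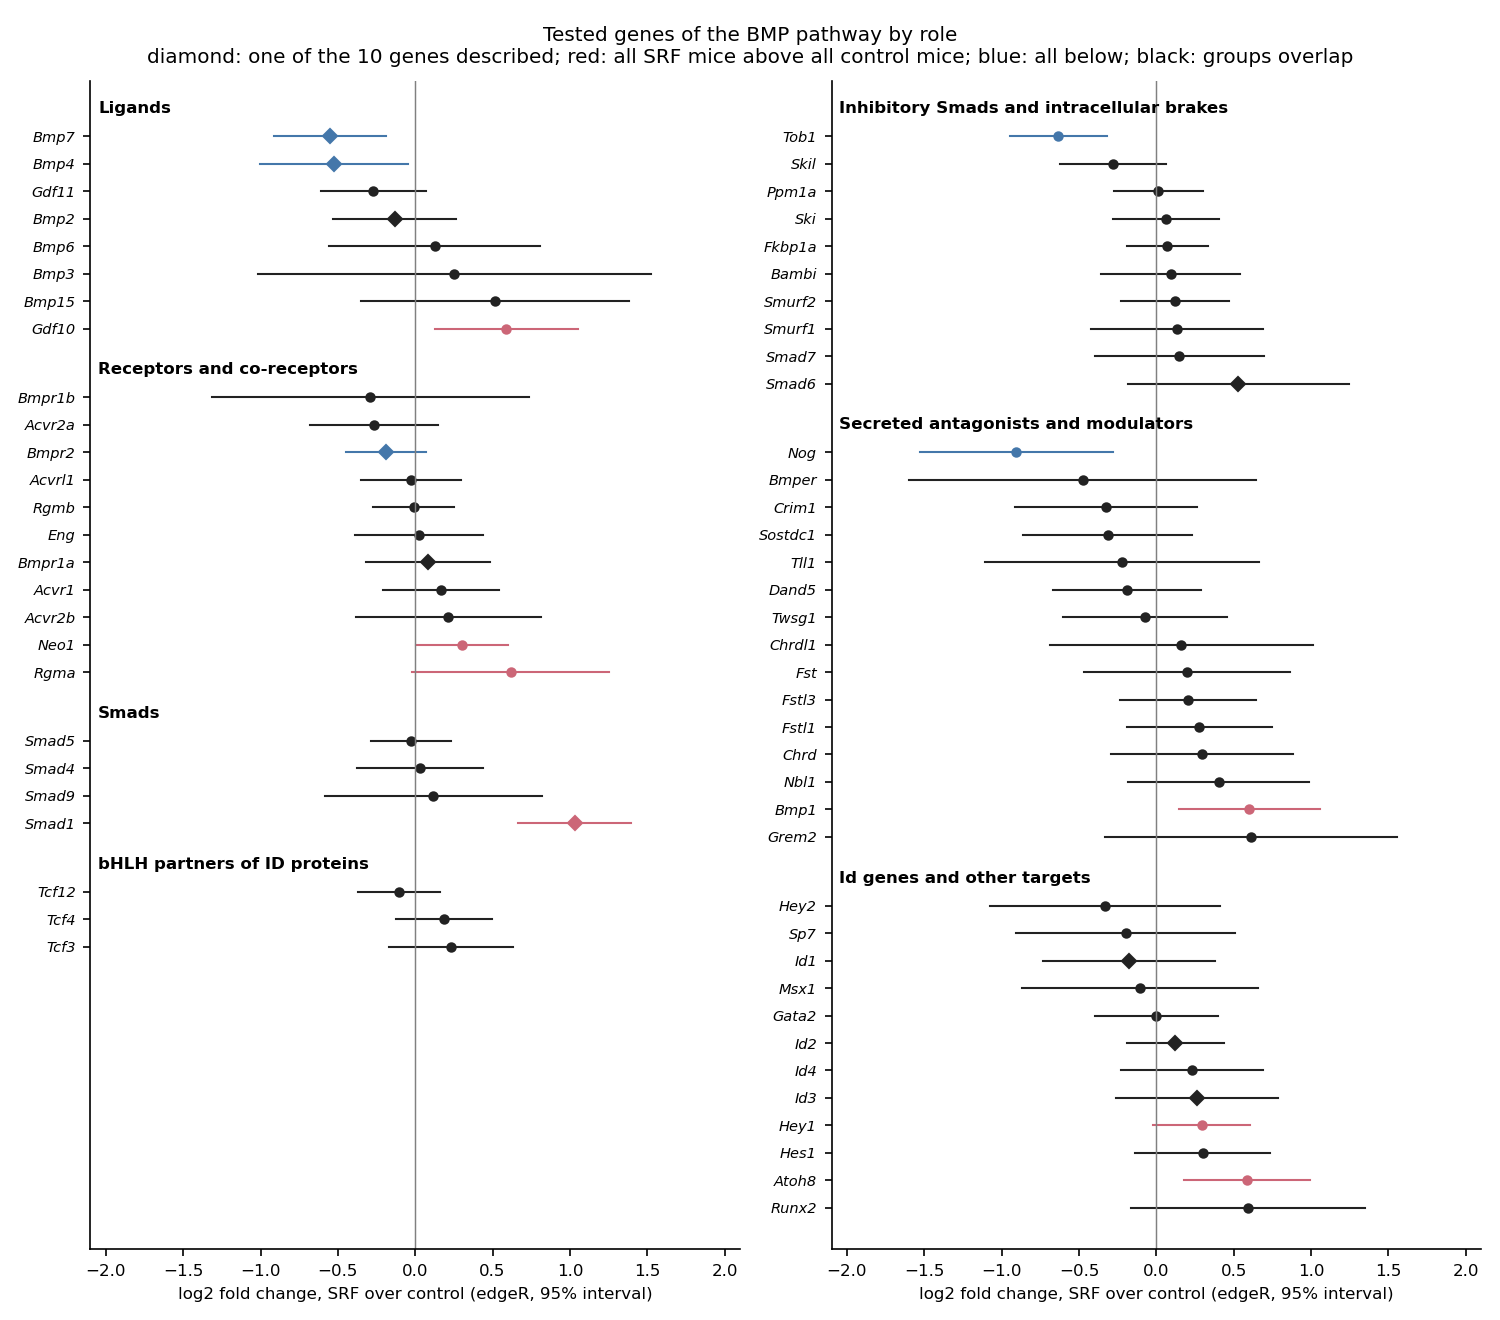
Log2 fold change of SRF over control (horizontal axis) with its 95% interval from the edgeR fit for the 63 tested genes of the BMP pathway, grouped by role; diamonds mark the 10 genes described first, red and blue mark genes whose 3 SRF mice lie all above or all below the control mice, and black marks overlap. Most intervals include 0, Smad1 lies farthest to the right at 1.03 and Nog farthest to the left at -0.90.

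Without control mouse 1 and SRF mouse 3, 8 of the 10 members did not overlap, with Smad1, Smad6, Id2 and Id3 higher and Bmp2, Bmp4, Bmp7 and Bmpr2 lower in SRF. With only 2 mice left in each group, 25.5% of all tested genes did not overlap on the higher side and 24.2% on the lower side. Leaving out SRF mouse 3 alone gave 7 of the 10, beside 17.9% and 17% of tested genes. The mean log2 CPM of the RPE markers was also added to the model, a choice made after the data were seen. It turned Bmp4 to 0.28 and took Bmp7 to -0.02 and Nog to -0.03. Of the 10 members Smad6 went highest, to 1.76, above Smad1 at 1.58. Id3 went to 1.06, Id1 to 0.78 and Id2 to 0.46, and Tob1 went to -1.03. That marker level itself separates the groups, so the model cannot tell it apart from SRF.

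**Figure D5:**
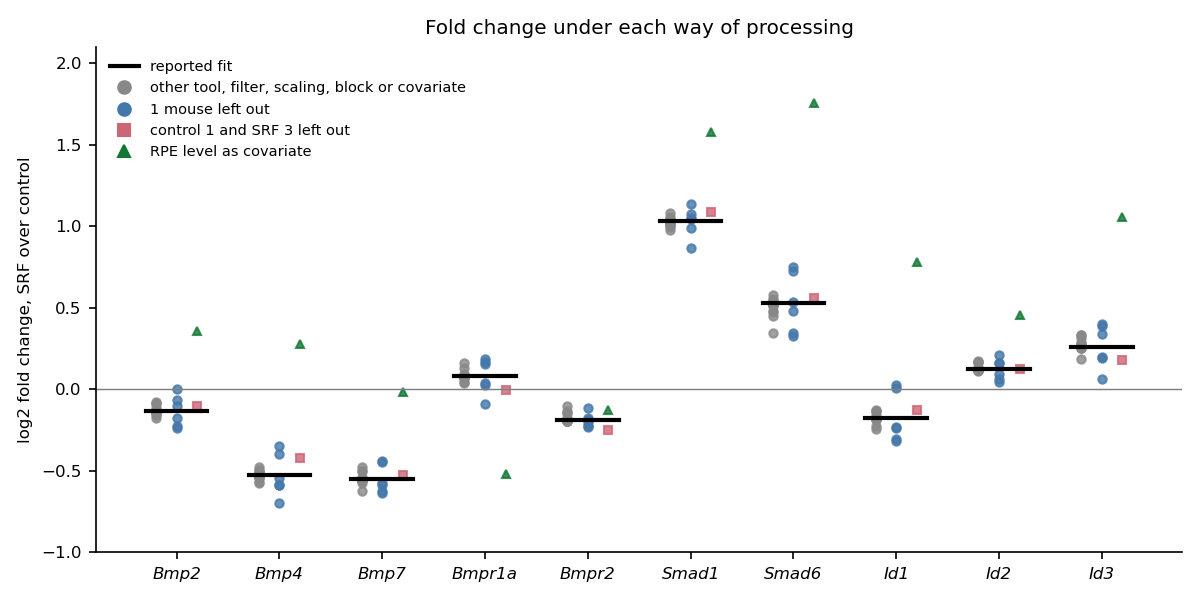
Log2 fold change of SRF over control (vertical axis) for each of the 10 genes in the reported edgeR fit (black bar), with other tools, filters, scalings, block or covariate (grey), with 1 mouse left out (blue), with both photoreceptor-rich libraries left out (red squares) and with the RPE marker level in the model (green triangles). Smad1 stays between 0.87 and 1.58, and Bmp2, Bmp4, Bmpr1a and Id1 cross 0 in at least 1 fit.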

How the data were processed

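RNA-seq libraries of RPE-choroid from 3 control and 3 SRF mice were compared. The authors filtered reads with FASTP, and the gene counts were deposited as whole numbers after StringTie, not normalized. FPKM values, also deposited by the authors, are scaled by transcript length and mapped reads. The aligner, build and strandedness are not given in the sources used here. Identifiers were matched to GENCODE M21 (GRCm38), which held 15659 of 15663.

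The study used DESeq2. Here the counts were tested with edgeR 4.0.16 in R 4.3.3 (TMM, quasi-likelihood, Benjamini-Hochberg over 13454 genes) on the group alone, and DESeq2 1.42.0 was an alternative, beside limma 3.58.1, other scalings and filters, a GC offset, a photoreceptor covariate, a replicate block and leaving out mice. The median standard error of a log2 fold change was 0.19. It holds the spread between mice as well as counting error. The scripts were tested on simulated data. Exact permutation tests were two-sided.

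The members and the pathway and marker lists were chosen with earlier results of these data known. Named were the 10 members, Id4, Smad5 and listed genes that were called, or did not overlap with a log2 fold change of at least 0.5. Neo1 and Hey1 fall outside this rule and were named after their values were seen. For Id1, Id2, Id3, Smad1 and Smad6, the 3 genes most like them were named.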

Additional observations from a re-analysis of the deposited data

How the results depend on the processing

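Over 21 alternatives, 358 of 378 fold changes of 18 named genes kept their direction and side of the threshold. Genes called numbered 0, and 1 with legacy = FALSE, limma-voom, upper quartile scaling, library totals, no filter, filterByExpr or a photoreceptor covariate, 2 with limma on log2(FPKM + 0.1) or log2(FPKM + 1), and 153 with DESeq2 or without both photoreceptor-rich libraries. Those 2 settings called 1 of the 10 members and 2 of the wider lists. Leaving out 1 mouse gave 0 to 5 genes called, with 5 without control mouse 1, no member and no wider gene called (0 to 0), and 4 to 7 members that did not overlap. This last number was 8 without both libraries. The 7 came from leaving out SRF mouse 3, where 17.9% of tested genes did not overlap on the higher and 17% on the lower side. Without both libraries these shares were 25.5% and 24.2%. Shares for the other mice left out are not given. Same-numbered mice are different animals, so the numbers do not pair them. Their deviations from the group means correlated at -0.479, 0.486 and -0.300. The photoreceptor-rich libraries, control mouse 1 and SRF mouse 3, bear different numbers and enter these values. The correlations therefore cannot decide whether same-numbered libraries were handled together. With the replicate block 0 genes were called, and Smad1 stood at 1.01 (edgeR adjusted p = 0.345).

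Log2 fold changes changed sign for Bmp2 (0.0031 without SRF mouse 3, 0.36 with the RPE covariate), Bmp4 (0.28 with the RPE covariate) and Bmpr1a (-0.088 without SRF mouse 3, -0.00103 without both libraries, -0.52 with the RPE covariate). Id1 was at 0.030 without control mouse 2, 0.01 without SRF mouse 3 and 0.78 with the RPE covariate, and Id4 at -0.15 with that covariate. Smad5 was at 0.019 and 0.017 with limma on log2(FPKM + 0.1) and log2(FPKM + 1), 0.023 with library totals or the GC offset, and 0.013 without SRF mouse 3 or both libraries. The causes were not tested. Leaving out 1 mouse gave -0.23 to 0.0031 for Bmp2, -0.088 to 0.18 for Bmpr1a, -0.32 to 0.030 for Id1, -0.091 to 0.013 for Smad5, -0.70 to -0.35 for Bmp4, -0.64 to -0.44 for Bmp7, 0.33 to 0.75 for Smad6, 0.047 to 0.21 for Id2, 0.065 to 0.40 for Id3, 0.12 to 0.47 for Id4, 0.87 to 1.13 for Smad1, -1.12 to -0.65 for Nog and -0.71 to -0.52 for Tob1.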

Other observations

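The genes most like single members were sought over the 6 libraries by Pearson correlation of log2 CPM, as a description among 13454 genes in which high values arise readily and with no test. Id1 was most like Ccdc17 (r = 0.998), Dnajb2 (r = 0.995) and Lsm1 (r = 0.993). Id2 was most like Hspb1, a small heat shock protein gene (r = 0.997), Fbn1, which encodes the microfibril protein fibrillin-1 (r = 0.995), and Ahnak (r = 0.990). Id3 was most like Mcrip1 (r = 0.997), 2200002D01Rik (r = 0.997) and Camk1 (r = 0.992). Smad1 was most like Atp9a (r = 0.993), Ercc8 (r = 0.987) and Oxsr1 (r = 0.986). Smad6 was most like Rap2c (r = 1.0), the Notch and BMP target Hes1 (r = 0.996) and Tent5c (r = 0.994).

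Of the other marker lists, fibroblast markers (10 genes) summed to 4629 to 10600 CPM in control and 7049 to 11480 CPM in SRF mice, and pericyte and smooth muscle markers (10 genes) to 2031 to 2693 against 2409 to 2611 CPM. Inner retina and Mueller glia markers (10 genes) summed to 3592 to 3677 against 2862 to 3246 CPM, melanocyte markers (6 genes) to 3890 to 5448 against 5349 to 5636 CPM, and Schwann cell markers (5 genes) to 330.2 to 539.9 against 383.9 to 1131 CPM. Surface epithelium (6 genes) was at 169.5 to 1947 against 502.6 to 951.6 CPM, skeletal muscle (7 genes) at 1105 to 1841 against 718.9 to 2633 CPM, and the 3 listed lens markers at 2.23 to 37.2 against 1.45 to 3.53 CPM. The RPE list shares Rlbp1 with inner retina and Mlana and Tyrp1 with melanocytes, and their part in the member values was not tested.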
